A study of Homo sapiens with 12 samples.

Results

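The SLC25A genes, which encode the mitochondrial carriers, were followed in HepG2 cells over 5 times of insulin stimulation. Members were the genes of the count table whose symbol is SLC25A followed by a number only, which gave 48 of 26364 genes. HepG2 is a line derived from a human liver carcinoma and was routinely grown in EMEM with fetal bovine serum. Before acute insulin, the study's methods describe EMEM without supplements, then physiologic or pathologic insulin in medium with albumin, then washes. The methods on RNA-seq do not say which of these steps those cells had. RNA-seq libraries were made at 0, 5, 10, 30 and 240 min after insulin, with 2 replicates at each time, from an experiment that the study's methods describe as done once on biologically independent samples. The p-values measure the spread between these samples. Times were taken from the titles. The treatment text of each RNA-seq library, also at 0 min, instead gives 3 nM insulin for 5 min after 16 h in EMEM. All libraries came from this 1 line, and the titles give no difference between groups other than the time. A ChIP-seq library of the insulin receptor (IR), 1 sample, was read for peaks at the same genes. Its treatment text also gives 3 nM insulin.

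Carriers of this family sit mostly in the inner mitochondrial membrane, where each exchanges or imports metabolites such as nucleotides, phosphate, citrate, amino acids or cofactors between the cytosol and the matrix. They are encoded in the nucleus, made in the cytosol and inserted by the TIM22 import pathway. In liver they supply the citrate used for fatty acid synthesis, the malate and aspartate that carry reducing equivalents, the ornithine of the urea cycle and the ADP and phosphate for ATP synthesis. A few members lie elsewhere, SLC25A17 in peroxisomes and SLC25A46 in the outer mitochondrial membrane.

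Sequences just upstream of a listed start of 2 members are shown because the first lies in an IR peak and the second holds a searched motif. The RNA of both is described further on. SLC25A15, the ornithine carrier, is shown by GRCh37 sequence within its IR peak that ends at the base before the annotated start, chr13:41363323-41363546 on the plus strand. SLC25A25, an ATP-Mg/phosphate carrier that changed most at 240 min, is shown by 1 of its 3 RefSeq promoters on GRCh38.p14, chr9:128098257-128098506 on the plus strand. Capitals mark a cAMP response element (CRE) 200 to 193 bases before the start of that promoter. It was chosen because it alone of the 3 holds a CRE. Its start was not matched to the annotated gene start used for peaks, and its use in HepG2 was not measured.
SLC25A15: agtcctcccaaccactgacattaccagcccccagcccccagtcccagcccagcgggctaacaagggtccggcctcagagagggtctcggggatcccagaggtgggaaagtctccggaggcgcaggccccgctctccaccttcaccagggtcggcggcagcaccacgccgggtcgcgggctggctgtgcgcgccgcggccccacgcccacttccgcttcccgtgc
SLC25A25: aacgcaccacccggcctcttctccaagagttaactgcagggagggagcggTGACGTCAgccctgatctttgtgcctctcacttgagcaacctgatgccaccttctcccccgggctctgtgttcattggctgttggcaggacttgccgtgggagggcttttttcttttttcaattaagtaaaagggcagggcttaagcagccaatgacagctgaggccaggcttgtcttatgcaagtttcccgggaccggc

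Between 18347109 and 45005769 reads per library were counted on genes. The 8 hepatocyte markers, ALB and APOB among them, were all tested and summed to 66300 to 82300 CPM (counts scaled to library size) in a library. ALB came nearest to the threshold at 240 min (-0.29, adjusted p = 0.0503). Of 8 markers of other cell types, PTPRC and MS4A1 were at 0 in every library, and the list summed to 40 to 49.5 CPM, most of it CD68. Expression over time is given as CPM after TMM normalization, and levels of different genes are compared as TPM, which is scaled for length. In these bulk libraries a larger share of cells that express a gene and more RNA per cell cannot be told apart.

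The members ranged from 0 to 598 TPM in mean level, and 3 carriers of ADP, ATP and phosphate stood at the top. SLC25A6, the ADP/ATP carrier ANT3, had a mean of 598 TPM ± 23.2 (SD over the 10 libraries), with a range of 564 to 629. SLC25A3, the phosphate carrier, had 541 ± 26.6 TPM, and its range of 510 to 592 overlapped that of SLC25A6. SLC25A5, the ADP/ATP carrier ANT2, had 475 ± 16.2 TPM, and its range of 450 to 500 lay below that of SLC25A3. The citrate carrier SLC25A1 followed at 182 ± 13.1 TPM, from 155 to 198, clear of SLC25A5 above it. SLC25A39, a glutathione carrier, had 111 ± 6.84 TPM, from 95.1 to 120, which overlapped the range of 83.3 to 98.7 of citrin, SLC25A13.

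Over time these abundant genes moved little. In the order 0, 5, 10, 30 and 240 min, with both replicates at each time, SLC25A6 was at 621.8 and 619.4, 593.4 and 564.2, 628.6 and 580.2, 623.3 and 593.1, and 586.8 and 573.2 TPM. Its libraries at 240 min lay below those at 0 min, but not below all others. SLC25A3 was at 413 and 380 CPM (0 min), 372 and 356 (5 min), 400 and 408 (10 min), 395 and 366 (30 min) and 375 and 382 (240 min). SLC25A5 was at 241 and 235 CPM (0 min), 222 and 225 (5 min), 243 and 234 (10 min), 243 and 215 (30 min) and 227 and 227 (240 min). SLC25A1 was at 136 and 123 CPM (0 min), 120 and 105 (5 min), 130 and 123 (10 min), 123 and 110 (30 min) and 125 and 122 (240 min). SLC25A39 was at 78.2 and 74.8 CPM (0 min), 72 and 61.7 (5 min), 74 and 72.5 (10 min), 74.1 and 66.2 (30 min) and 69.9 and 68.1 (240 min). Both libraries at 240 min lay below both at 0 min for SLC25A39 and SLC25A5, and overlapped them for SLC25A1 and SLC25A3. None of the 4 with counts passed the test at 240 min, and the 95% interval of the log2 fold change against 0 min was -0.18 to 0.05 for SLC25A3, -0.18 to 0.05 for SLC25A5, -0.20 to 0.07 for SLC25A1 and -0.28 to -0.01 for SLC25A39. The last interval leaves out 0 before adjustment only (adjusted p = 0.0864, edgeR). SLC25A39 was called lower with a replicate block (-0.15, adjusted p = 0.0320), with only the times compared in the model (-0.14, adjusted p = 0.0434) and without replicate 1 or replicate 2 at 5 min (adjusted p = 0.0492 and 0.0486).

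**Figure D1:**
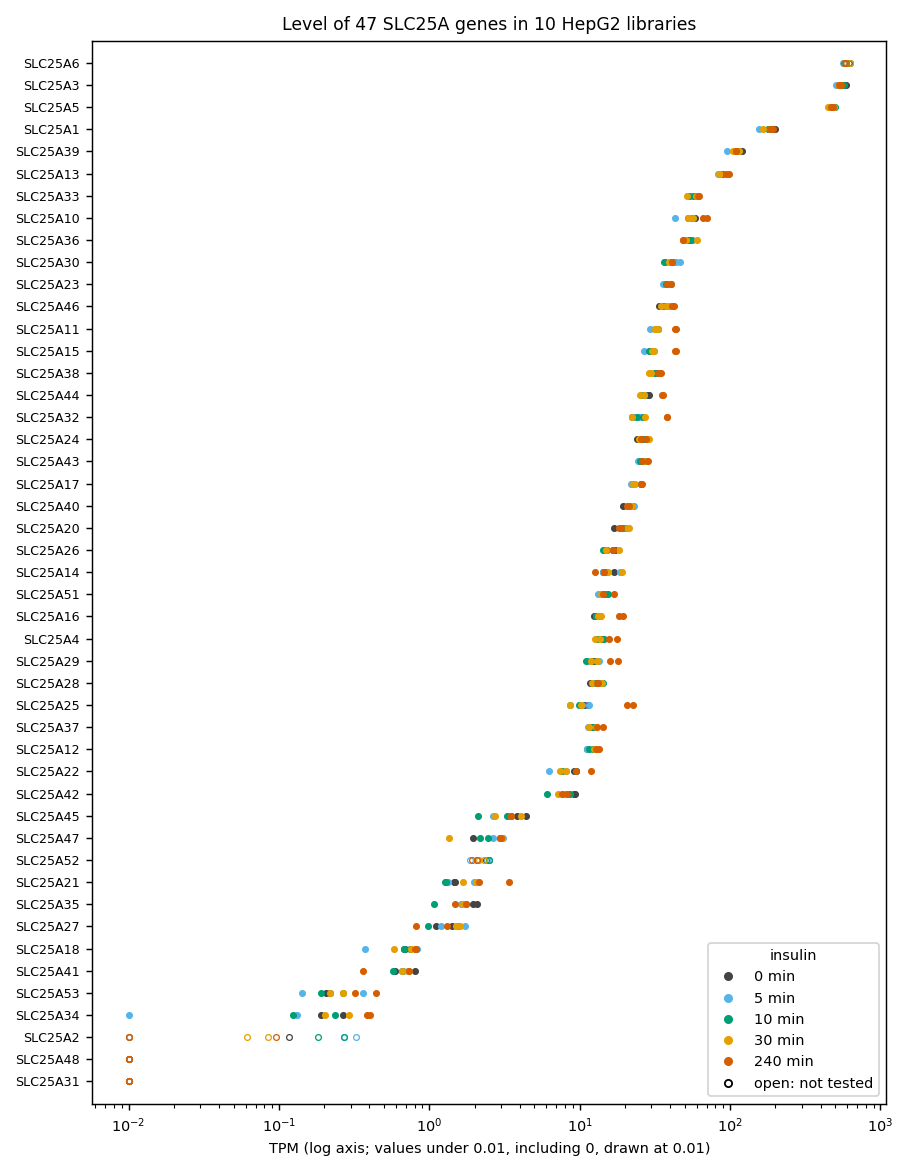
TPM of 47 SLC25A genes, on a log axis, with 1 point for each of the 10 libraries. Points are coloured by min after insulin and open where the gene was not tested on counts. SLC25A6, SLC25A3 and SLC25A5 lie at 450 to 629 TPM, and SLC25A31 and SLC25A48 at 0, drawn at the left edge.

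Low or uncountable members were set apart before the times were compared. Of the 48 genes, 43 passed the filter on low counts and were tested, and SLC25A2, SLC25A6, SLC25A31, SLC25A48 and SLC25A52 did not. SLC25A31, the ANT4 isoform, had 1 count in all libraries together and SLC25A48 had 2, and both were listed at 0 TPM. SLC25A2, the ornithine carrier ORNT2, had 21 counts in all, with 0 to 5 in a library. These 3 were too low to judge at any time.

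For SLC25A6 and SLC25A52 the deposited tables differed. SLC25A6 had 0 counts in all 10 libraries, although StringTie gave it the highest TPM of the family. The abundance tables list it once on X, chrX:1505045-1511039, and once on Y, chrY:1455045-1461039, the 2 copies of a gene shared by both sex chromosomes, and their TPM were summed here. SLC25A52, a mitochondrial NAD carrier closely related to SLC25A51, had 1 count in all and a mean of 2.22 TPM, from 1.86 to 2.50. Both are therefore uncertain as counts, and the cause of the gap was not tested. On log2(TPM + 1), tested with limma over all genes with a mean of at least 1 TPM, SLC25A6 differed by -0.10 at 240 min against 0 min (SE 0.058, adjusted p = 0.236) and SLC25A52 by -0.10 (SE 0.092, adjusted p = 0.441).

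Among the 43 tested genes, 7 were too imprecise at 240 min for a change of modest size to be seen, with a 95% interval wider than 0.5 on either side of the log2 fold change. They were SLC25A18, SLC25A27, SLC25A34, SLC25A35, SLC25A41, SLC25A47 and SLC25A53, with mean levels of 0.271 CPM for SLC25A34 to 1.81 CPM for SLC25A47. SLC25A53, for example, was at 0.464 and 0.494 CPM at 0 min and 0.680 and 0.999 CPM at 240 min, a log2 fold change of 0.76 with an interval of -0.05 to 1.56. SLC25A34 rested on 1 to 14 counts in a library, and its interval at 240 min was -0.30 to 1.61. For these genes a change of modest size was not detectable at this depth. The other 36 had intervals of 0.11 to 0.43 on either side.

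The comparison of 240 min with 0 min asked which carriers differ at the latest time after insulin. The samples held no unstimulated library at a later time than 0 min, so insulin and time in culture cannot be told apart. Of the 43 tested genes, 12 passed an adjusted p of 0.05 over all 13852 tested genes, 11 of them higher and 1 lower. SLC25A25 rose most, by 0.93 on the log2 scale or 1.90-fold, followed by SLC25A32 at 0.68, SLC25A15 at 0.49 and SLC25A16 at 0.48, and SLC25A36 was the only one of the 12 that was lower, at -0.16. The share called was 27.9%, against 41.0% of all tested genes, and in all genes 20.6% were higher and 20.4% lower. The median log2 fold change of the tested members was 0.08 against -0.0026 for all tested genes, and 27 of 43 were positive. The 2 libraries at 240 min lay wholly above those at 0 min for 18 members and wholly below for 5, a spacing that 69.7% of all tested genes had in one direction or the other.

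These calls depend on scaling. When libraries were scaled by the ERCC spike-in totals, which moved the median of all genes at 240 min to -0.12, SLC25A25 alone passed the threshold of the 12 (0.81, adjusted p = 0.00235), while the other 11 kept their sign and missed it, SLC25A32 at 0.55 (adjusted p = 0.0501) among them. The median over the tested members then turned from 0.08 to -0.05. Of all tested genes 1059 were then called, 331 of them higher, against 2847 higher of 5676 under TMM. ERCC shares of counts also differed between replicates, 1.65% and 1.91% at 240 min, while both libraries at 0 min had 1.59%. How far this spread removed calls was not tested. The changes below are given relative to the bulk of genes, as TMM sets it.

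Among the carriers of adenine nucleotides and phosphate, 7 of 9 were tested, 2 were higher and 5 were not called. Counts by group, here and below, stand beside 41.0% of all tested genes called, 20.6% higher and 20.4% lower. SLC25A25 (chr9:130830479-130871537, hg19) is a calcium-regulated carrier that exchanges ATP-Mg for phosphate. It was at 14.8 and 15.3 CPM (0 min), 15.6 and 14.1 (5 min), 13.3 and 12 (10 min), 14 and 11.5 (30 min) and 28.3 and 29.2 (240 min). Both late libraries stood above all 8 others, and the 2 at 10 min and the 2 at 30 min were below those at 0 min. The log2 fold change at 240 min was 0.93 (SE 0.090, adjusted p = 1.58e-07, edgeR), and it was called in every alternative and with any 1 library left out, with estimates of 0.81 to 0.97. Its antisense neighbour SLC25A25-AS1, counted separately by strand, was at 6.21 CPM at 0 min and 5.90 CPM at 240 min (-0.09, SE 0.13, adjusted p = 0.589).

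SLC25A4 (chr4:186064417-186071538), the ADP/ATP carrier ANT1 of muscle and heart, was at 25.5 and 25 CPM (0 min), 23.8 and 23.2 (5 min), 25.8 and 23.8 (10 min), 22.7 and 24.1 (30 min) and 27.9 and 30.2 (240 min). It was a minor ADP/ATP carrier here, at 14.2 TPM against 475 for SLC25A5. Its libraries at 240 min were the 2 highest of the 10, and the log2 fold change was 0.20 (SE 0.072, adjusted p = 0.0331). That call was lost with DESeq2, on TPM and without either library at 0 min or replicate 2 at 240 min. The other ATP-Mg carriers, SLC25A23 at 48.9 and 48.1 CPM and SLC25A24 at 36.6 and 37.4 CPM, means at 0 and 240 min, were not called.

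Of the 4 di- and tricarboxylate carriers, all tested, 2 were higher and 2 were not called. SLC25A11 (chr17:4840426-4843462) exchanges oxoglutarate for malate in the malate-aspartate shuttle. It was at 24.8 and 23.8 CPM (0 min), 23.4 and 21.9 (5 min), 23.5 and 23.5 (10 min), 24.3 and 22.7 (30 min) and 31.5 and 30.7 (240 min). The late libraries stood clear of the other 8, and the log2 fold change was 0.36 (SE 0.069, adjusted p = 0.00034). SLC25A10, which exchanges malate or succinate for phosphate, was at 46.4 and 47.3 CPM (0 min), 44.5 and 34.9 (5 min), 45.9 and 43 (10 min), 45.9 and 41.5 (30 min) and 53 and 55.2 (240 min). Replicate 2 at 5 min was the lowest of its 10 libraries and the 2 at 240 min were the highest. The log2 fold change at 240 min was 0.20 (SE 0.080, adjusted p = 0.0487), just inside the threshold, and the call was lost with DESeq2, on TPM and without any 1 of the 6 libraries at 0, 10 and 240 min. SLC25A21, the oxodicarboxylate carrier, had a mean of 2.01 CPM at 0 min and 2.69 CPM at 240 min and was not called (0.46, adjusted p = 0.0819). On TPM, with limma and a mean of at least 1 TPM, it was called higher with a pseudocount of 1 (0.58, adjusted p = 0.0379) and of 0.1 (0.82, adjusted p = 0.0425).

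The amino acid and acylcarnitine carriers gave 3 higher, 0 lower and 6 not called of 9 tested. SLC25A15 (chr13:41363547-41386596) carries ornithine into the matrix for the urea cycle. It was at 46.8 and 47.1 CPM (0 min), 48.5 and 42.6 (5 min), 48 and 46.3 (10 min), 47.7 and 47.8 (30 min) and 66.4 and 65.6 (240 min). Replicates agreed closely at 0, 30 and 240 min, and the late pair lay above the rest. The log2 fold change was 0.49 (SE 0.060, adjusted p = 2.49e-06). SLC25A29 (chr14:100757448-100772884), a carrier of basic amino acids, was at 12.5 and 12.8 CPM (0 min), 13.3 and 11.4 (5 min), 12.4 and 12.8 (10 min), 11.8 and 12.7 (30 min) and 15.6 and 18.1 (240 min). The 8 earlier libraries lay between 11.4 and 13.3 CPM and both late ones above them, with a log2 fold change of 0.41 (SE 0.098, adjusted p = 0.0025).

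SLC25A44 (chr1:156163723-156182587) carries branched-chain amino acids. It was at 42.2 and 41.9 CPM (0 min), 38.3 and 39.4 (5 min), 37.7 and 39.4 (10 min), 39.1 and 36.4 (30 min) and 52.1 and 50.4 (240 min). Values at 5 to 30 min lay below those at 0 min, while the 2 at 240 min were the highest, and the log2 fold change at 240 min was 0.29 (SE 0.058, adjusted p = 0.000623). The aspartate/glutamate carriers were not called at this comparison, with SLC25A13 at 0.10 (adjusted p = 0.107) and SLC25A12 at 0.10 (adjusted p = 0.356). The glutamate carrier SLC25A22 stood at 0.24 (adjusted p = 0.127) and the glycine carrier SLC25A38 at 0.02 (adjusted p = 0.810). SLC25A20, which moves acylcarnitines for fatty acid oxidation, had means of 14.2 CPM ± 1.61 (SD, n = 2) at 0 min and 13.8 ± 0.517 (SD, n = 2) at 240 min and was not called.

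Carriers of cofactors and pyrimidine nucleotides held 3 of the calls above 0 min and the 1 below it, with 7 of 11 tested not called. SLC25A32, a carrier of folate and FAD, was at 30.9 and 28.7 CPM (0 min), 32.4 and 30.1 (5 min), 31 and 34.4 (10 min), 28.9 and 34.2 (30 min) and 47.9 and 46.7 (240 min). No earlier library exceeded 34.4 CPM, and the log2 fold change was 0.68 (SE 0.077, adjusted p = 1.22e-06). SLC25A16 (chr10:70242090-70287280), linked to coenzyme A transport, was at 11.6 and 12.4 CPM (0 min), 11.6 and 12 (5 min), 11.7 and 12.6 (10 min), 12 and 12.4 (30 min) and 17.4 and 16.2 (240 min). Both late values stood above the range of the others, and the log2 fold change was 0.48 (SE 0.089, adjusted p = 0.000235). SLC25A17 (chr22:41165634-41215403), the peroxisomal cofactor carrier, was at 20.9 and 20.9 CPM (0 min), 20.6 and 20.2 (5 min), 22.6 and 23.9 (10 min), 20.9 and 20 (30 min) and 23.5 and 26.6 (240 min). Its replicate 1 at 240 min lay between the 2 libraries at 10 min, so the late values overlapped those at 10 min and not those at 0 min. The log2 fold change at 240 min was 0.26 (SE 0.077, adjusted p = 0.0119), and without replicate 2 at 240 min or replicate 2 at 0 min the gene was not called.

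SLC25A36 (chr3:140660662-140698785), a pyrimidine nucleotide carrier, was at 100 and 99.9 CPM (0 min), 105 and 106 (5 min), 103 and 105 (10 min), 97.5 and 111 (30 min) and 90.4 and 88.7 (240 min). Its 2 late libraries were the lowest of the 10, and the log2 fold change was -0.16 (SE 0.056, adjusted p = 0.0273). That call was lost with DESeq2, with upper-quartile scaling, on TPM and without any 1 library of either time. The second pyrimidine nucleotide carrier, SLC25A33, had means of 20.6 and 21.3 CPM at 0 and 240 min and was not called. Neither was SLC25A42, a coenzyme A carrier with means of 12.3 and 10.3 CPM (-0.25, adjusted p = 0.0995). The S-adenosylmethionine carrier SLC25A26, the glutathione carrier SLC25A40 and the NAD carrier SLC25A51 stood at -0.06, -0.01 and 0.02, each with an interval of at most 0.24 on either side.

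In the remaining groups 1 gene was called. Among the 4 uncoupling protein-like and outer membrane members, SLC25A46 (chr5:110073837-110100861), known for a role in mitochondrial fission and fusion, was at 65.5 and 67.4 CPM (0 min), 74 and 69.6 (5 min), 68.1 and 68.6 (10 min), 66.4 and 70.5 (30 min) and 77.5 and 78.1 (240 min). Its late pair was the highest, and the log2 fold change was 0.23 (SE 0.053, adjusted p = 0.00196). SLC25A14, also called UCP5, had means of 10.1 and 8.47 CPM at 0 and 240 min and missed the threshold (-0.24, adjusted p = 0.0598). SLC25A30 stood at -0.03 (adjusted p = 0.704). Neither mitoferrin, SLC25A37 or SLC25A28, both importers of iron, was called, with 9.91 and 10.4 CPM and with 8.13 and 8.13 CPM at 0 and 240 min. All 6 tested members without an assigned substrate were not called, SLC25A43 at 26.1 and 27.5 CPM being the most abundant of them and SLC25A45 at 3.95 and 4.08 CPM the next.

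**Figure D2:**
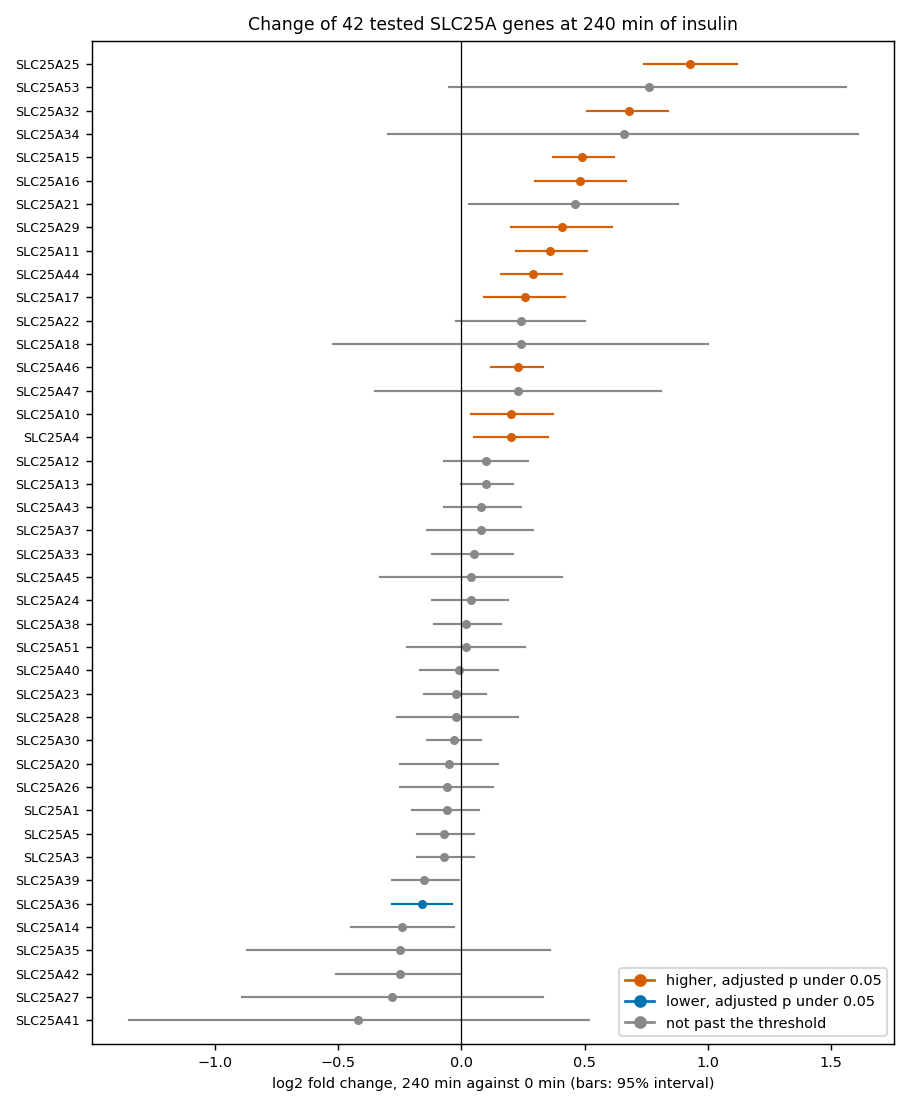
Log2 fold change of 42 tested SLC25A genes at 240 min against 0 min (points) with 95% intervals (bars), in order of size and coloured by whether the adjusted p was under 0.05. SLC25A25 lies farthest right at 0.93, and the widest intervals belong to low genes such as SLC25A34 and SLC25A41.

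**Figure D3:**
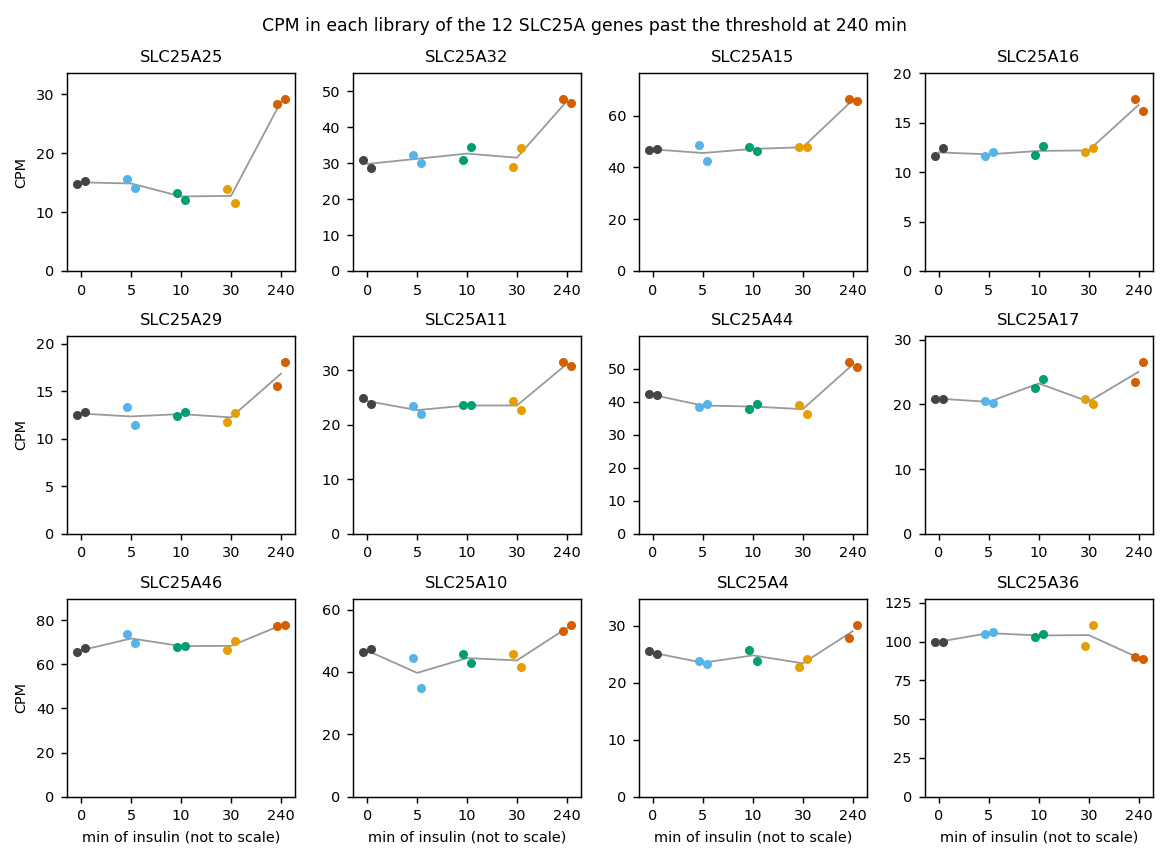
CPM in each library of the 12 SLC25A genes past the threshold at 240 min, with 2 points for the 2 replicates at each time, a line through the means and an axis from 0. In SLC25A25 the pair at 240 min, 28.3 and 29.2, stands above the other 8 libraries, while in SLC25A10 and SLC25A4 the same step is small.

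At 5, 10 and 30 min against 0 min, edgeR called 0 members at each time. The background in all tested genes was 0%, 0.137% and 0.332% of 13852. DESeq2 also called 0 members at each of the 3 times. At an unadjusted p under 0.05 there were 8, 4 and 5 members, against 14.3%, 5.13% and 8.12% of all tested genes, and the lowest adjusted p among members was 0.255, 0.704 and 0.477. The medians over members were -0.04, -0.02 and -0.04.

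Values below an unadjusted 0.05 at 5 min included those of SLC25A1 (-0.19, adjusted p = 0.255), SLC25A10 (-0.23, adjusted p = 0.262) and SLC25A39 (-0.19, adjusted p = 0.262), and each had its lowest library in replicate 2 at 5 min. With replicate 1 at 5 min left out, SLC25A10 was called at 5 min (-0.43, adjusted p = 0.0429), a fit in which 1 library stands for that time and is assumed to vary like the others. At 10 and 30 min the coenzyme A carrier SLC25A42 had means of 9.78 and 9.86 CPM, against 12.3 at 0 min (-0.32 at each time, adjusted p = 0.777 and 0.477). SLC25A25 had 12.7 and 12.8 CPM at these times against 15.1 at 0 min (-0.25 and -0.23, adjusted p = 0.820 and 0.544).

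The comparison of 240 min with 30 min used libraries other than those at 0 min as its reference, while the libraries at 240 min were the same. Here 16 members passed, 14 higher and 2 lower, or 37.2% against 38.2% of all tested genes, of which 19.8% were higher and 18.4% lower. The median over members was 0.14. With ERCC scaling 2 members were called, both higher, and 573 of the 917 genes called in all were higher. SLC25A25 rose 2.23-fold, a log2 fold change of 1.16 (SE 0.095, adjusted p = 2.33e-08), SLC25A32 by 0.59, SLC25A16 and SLC25A15 by 0.47, SLC25A29 by 0.46 and SLC25A44 by 0.44. The glutamate carrier SLC25A22 rose by 0.43 (adjusted p = 0.0137), from 8.87 and 9.47 CPM at 30 min to 11.1 and 13.7 CPM at 240 min. SLC25A11 rose by 0.40, SLC25A4 by 0.31, SLC25A10 by 0.30, SLC25A17 by 0.28 and SLC25A46 by 0.19.

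Citrin, SLC25A13, a carrier of the malate-aspartate shuttle, was at 111 and 106 CPM at 30 min and 125 and 117 CPM at 240 min, a log2 fold change of 0.16 (adjusted p = 0.0184). The glycine carrier SLC25A38 was at 23.6 CPM in both libraries at 30 min, the 2 lowest of its 10, and at 26.4 and 27.2 CPM at 240 min (0.18, adjusted p = 0.0415). On the lower side, SLC25A14 had 10.4 and 10.6 CPM at 30 min and 8.48 and 8.47 CPM at 240 min (-0.31, adjusted p = 0.0212), and SLC25A36 fell by 0.22 (adjusted p = 0.00479). By group, against 38.2% of all tested genes, 2 of 7 adenine nucleotide and phosphate carriers were called, 2 of 4 di- and tricarboxylate carriers and 6 of 9 amino acid and acylcarnitine carriers. Of the 11 cofactor and pyrimidine nucleotide carriers 3 were higher and 1 lower, and of the 4 uncoupling protein-like and outer membrane members 1 was higher and 1 lower. The 2 mitoferrins and the 6 tested members without an assigned substrate were not called.

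A single test over the 5 times called 14 members, 32.6% against 38.3% of all tested genes. SLC25A22 and SLC25A30 were called there and not at 240 min against 0 min. SLC25A30, an uncoupling protein-like carrier, was at 61.7 and 63.2 CPM (0 min), 66.0 and 70.8 (5 min), 55.6 and 56.2 (10 min), 59.2 and 61.2 (30 min) and 61.9 and 60.6 (240 min) (adjusted p = 0.00395). Its 2 libraries at 5 min were the highest and those at 10 min the lowest. SLC25A22 had means of 8.47 CPM ± 1.35 (SD, n = 2) at 5 min and 12.4 ± 1.81 (SD, n = 2) at 240 min (adjusted p = 0.0263). The count of 14 over all times became 3 with ERCC scaling and 8 with limma on TPM under each of 3 settings. Calls over all genes fell as well, from 5308 to 1279 with ERCC scaling and to between 2970 and 3259 with limma.

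**Figure D4:**
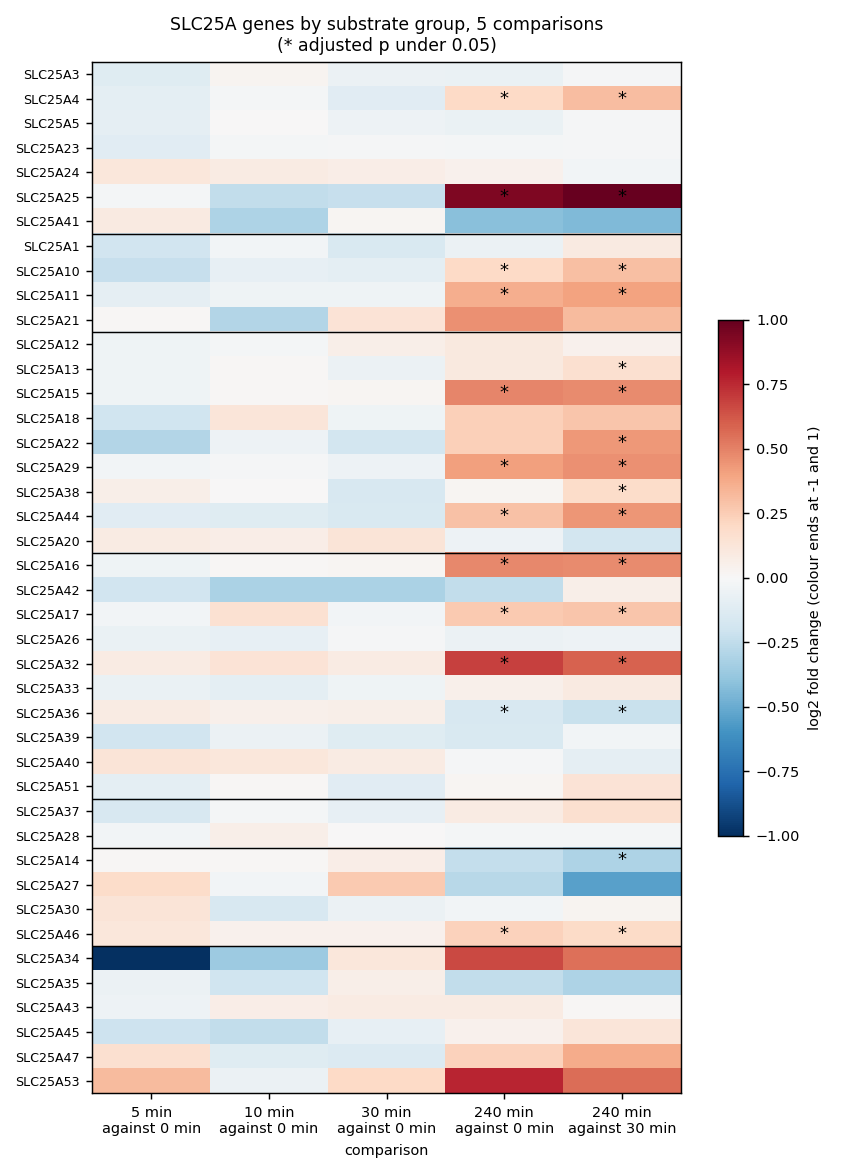
Log2 fold change of 42 tested SLC25A genes (rows, by substrate group, with lines between groups) in 5 comparisons (columns), coloured from -1 to 1, with a star where the adjusted p was under 0.05. Stars appear only in the 2 columns of 240 min, and the darkest cells there belong to SLC25A25. SLC25A34, at -1.36, is the dark cell at 5 min with few counts behind it.

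Other genes of mitochondrial membrane transport were read beside the carriers. Of 22 tested genes of that list, uncoupling proteins, porins, sideroflexins and the calcium uniporter among them, 6 were higher, 5 lower and 11 not called at 240 min against 0 min, where 41.0% of all tested genes were called, and 0 were called by edgeR at 5, 10 or 30 min. LETM1, an inner membrane ion exchange protein, rose from a mean of 61.3 to 81.2 CPM (0.41, SE 0.054, adjusted p = 5.76e-06), and ABCB10, an inner membrane ABC transporter, from 43 to 51.1 CPM (0.26, SE 0.070, adjusted p = 0.00539). MCU, the calcium uniporter pore, fell from 40.6 to 32.1 CPM (-0.34, SE 0.073, adjusted p = 0.000955).

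Genes listed for carrier import, TOMM genes of the outer membrane included, gave 6 higher, 3 lower and 4 not called of 13 tested at 240 min. Of all tested genes 20.6% were higher and 20.4% lower. TIMM8A, a small chaperone of the intermembrane space, rose from 8.90 to 15.2 CPM (0.76, SE 0.097, adjusted p = 4.85e-06), and TIMM10, another, from 11.4 to 15.0 CPM (0.39, SE 0.089, adjusted p = 0.00161). C19orf52, also known as TIMM29, a subunit of the TIM22 complex, fell from 8.25 to 6.47 CPM (-0.36, SE 0.12, adjusted p = 0.0215). TIMM22, also of that complex, rose from 15.7 to 19.1 CPM (0.29, SE 0.083, adjusted p = 0.00919, edgeR).

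IR peaks lay within 1 kb of the annotated start of 6 of the 48 members, or 12.5%, against 6.93% of all 26364 genes. Among tested genes, 5 of the 43 members had one, against 12.3% of all tested genes. Peaks come from 1 library, so that they carry no replicate check, and coordinates are hg19. The median score of the 1971 peaks was 79. SLC25A10 had a peak with a score of 86 over its start. SLC25A15 had one with a score of 74 at chr13:41363323-41364160, which covers the start and the upstream sequence printed above. The peak at SLC25A1, chr22:19165919-19166521, also covers the start but had a score of 25. Near SLC25A6 a peak with a score of 101 lay 290 bases from the start, at chrX:1511329-1511932, and near SLC25A53 one with 27 lay 31 bases away, at chrX:103401387-103401677, in an intron by the HOMER annotation.

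SLC25A10 and SLC25A15 were called higher at 240 min against 0 min, SLC25A1 and SLC25A53 were tested and not called, and SLC25A6 was not tested on counts. Of all tested genes 41.0% were called at that comparison, and the share among tested genes with a peak was not computed. The call of SLC25A10 was lost in several alternatives, as given above. With only peaks above the median score, 3 members had one. SLC25A25 had no peak at the annotated start or in its body extended by 5 kb, a window in which 9 members had one. Shares over all genes were not computed for the higher score or the wider window. These counts were therefore not set against a background.

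In the RefSeq promoters of GRCh38.p14, from 250 bases before to 50 after a start, 40 of the 48 members were matched, with 51 promoters, and were set beside all 35116. Motifs were searched as fixed letters on both strands, without regard to overlap. The GC box GGGCGG was in 66.7% of member promoters and 45.0% of all, the E-box CACGTG in 17.6% and 7.26%, and the ETS core CCGGAAG in 21.6% and 10.3%. The FOXO core GTAAACA was in 0 member promoters and 3.42% of all, a share at which few matches would be expected in 51 promoters. All promoters were taken without regard to expression in HepG2, whereas 43 of the 48 members were tested. Shares over promoters of tested genes were not computed, so these differences cannot be read as particular to the family. The CRE TGACGTCA was in 5.88% of member promoters and 1.85% of all. The member share rests on 3 promoters, those of SLC25A25, SLC25A33 and SLC25A36. Of these genes, SLC25A25 was higher at 240 min, SLC25A36 lower and SLC25A33 not called. These are matches of letters, and binding at them was not measured.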

How the data were processed

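RNA-seq was analysed in 10 HepG2 libraries, 2 at each of 5 times, and IR ChIP-seq in 1 library. The input library was not analysed here. The authors trimmed reads with Trim Galore 0.6.4, aligned single-end RNA reads to hg19 with STAR 2.6.1d, counted them on genes as reverse-stranded with featureCounts 1.6.4 and deposited raw counts. TPM from StringTie, a length-scaled level per gene, were deposited as well. For ChIP-seq the authors aligned with BWA 0.7.17-r1188, called peaks with MACS2 2.2.7.1 and deposited a peak score with HOMER annotation. The library texts on extraction look exchanged between the 2 assays in the labels, and the study's methods name a stranded RNA kit.

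Counts were analysed here with edgeR 4.0.16 in R 4.3.3 (TMM, filterByExpr by time, quasi-likelihood test, 1 model of 10 libraries, two-sided, Benjamini-Hochberg over 13852 genes), and genes with an adjusted p under 0.05 were called. The 92 ERCC rows, 1.59% to 2.36% of counts, were used for neither library sizes nor tests. Standard errors and 95% intervals follow from each log2 fold change and its F value. Counts of the 2 replicates at a time differed beyond sampling (chi-square over degrees of freedom 2.75 to 6.13). Alternatives were DESeq2 1.42.0, other filters and scalings, limma 3.58.1 on log2 TPM with a pseudocount of 1 or 0.1, a replicate block and leaving out each library. The edgeR, DESeq2 and limma steps were tested on simulated data. Peaks were counted within 1 kb of gene starts from the StringTie tables. Python 3.11.15, pandas 2.3.3, numpy 2.4.6 and matplotlib 3.10.9 were used.

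The members and lists were chosen with earlier results of these data known. Values in every library are given for the 12 called members with the largest change at 240 min. They are also given for the 5 members with the highest mean TPM. From each other list, up to 3 called genes with the largest change are named. TIMM22 is named in addition because it belongs to the TIM22 complex. Other members are named because every member was to be accounted for. The counts cover every member, and 1 member is not reported by name here.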

Additional observations from a re-analysis of the deposited data

Results flagged for a closer look

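Expression appeared in the StringTie tables for 2 members that had almost no counts. SLC25A6 had a mean of 598.0 TPM over the 10 libraries with 0 counts in each of them. SLC25A52 had a mean of 2.22 TPM with 1 count in all libraries together. With 2 libraries at each time, no group was large enough to be examined for a single outlying library.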

How the results depend on the processing

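At 5, 10 and 30 min, 0 members were called under each alternative with all libraries. Leaving out 1 library gave 0 to 1 member at 5 min, the 1 being SLC25A10 without replicate 1 at 5 min, and 0 at 10 and 30 min. At 240 min against 0 min the count of 12 became 1 with ERCC scaling and 8 to 13 with 1 library left out, lowest without replicate 2 at 0 min or at 240 min. At 240 min against 30 min the count of 16 became 2 with ERCC scaling and 11 to 16 with 1 library left out, lowest without replicate 2 at 30 min. In both comparisons of 240 min, leaving out a library of either time also lowered the calls over all genes. Over all times the count of 14 became 3 with ERCC scaling and 8 with limma on TPM under each of 3 settings. Calls over all genes went from 5308 to 1279 with ERCC scaling and to between 2970 and 3259 with limma. The cause of these differences was not tested. None of the 12 members called at 240 min changed sign at that time in these alternatives, and the signs of other members were not compared. At 240 min against 0 min, calls were also gained for SLC25A13 with upper-quartile scaling (0.13), SLC25A42 without either library at 10 min (-0.25 and -0.26) and SLC25A22 without replicate 1 at 240 min (0.39). The median over members at 240 min turned from 0.08 to -0.05 with ERCC scaling. The peak count of 6 became 3 with scores above the median, a cutoff at which no share over all genes was computed.

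Replicate numbers were not treated as pairs in the main model. The correlation of replicate deviations between times ran from -0.23 to 0.2 and was over 0.1 in 4 of 10 pairs of times. These values do not settle whether libraries with the same replicate number shared an effect. With a replicate block, 0 members were called at 5, 10 and 30 min, 13 at 240 min against 0 min, 16 against 30 min and 16 over all times. Calls over all genes then went from 5676 to 5845 at 240 min against 0 min. They went from 5297 to 5477 against 30 min and from 5308 to 5603 over all times.

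ERCC scaling moved the median log2 fold change of all genes to -0.08, -0.33, -0.13 and -0.12 at 5, 10, 30 and 240 min, and the count of all genes called at 240 min from 5676 to 1059, at 240 min against 30 min from 5297 to 917 and at 30 min from 46 to 4. The ERCC share at 10 min was 1.73% in replicate 1 and 2.36% in replicate 2. With no filter on low counts, 144, 74 and 160 of all genes were called at 5, 10 and 30 min against 0, 19 and 46. With 2 replicates at each time, depth limits the low members named in the text.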
